A study of Mus musculus with 11 samples.

Results

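36 genes of glycolysis and of the response to low oxygen were followed in NIH/3T3, a fibroblast line derived from mouse embryos. They were taken by symbol from the gene count table and filled 37 of its 21684 rows, because Aldoa also had a second entry (ENSMUSG00000114515) of at most 31 counts. All 37 rows were among the 13332 that passed the filter on low counts. The 11 RNA libraries came from wild type cells (WT, 2 libraries) and from lines labelled Xap5 KO, Nono KO and Sox5 KO (3 libraries each). All groups had spent the last 24 h in serum-free medium, the condition under which these cells form primary cilia, and no group is labelled as kept in serum or at low oxygen. The labels give neither the number of clones behind each knockout nor whether the libraries of a group came from separate cultures, so the p-values measure the spread between these libraries only. The study set each knockout line against WT.

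Glycolysis splits glucose into pyruvate in the cytosol, and lactate dehydrogenase turns pyruvate into lactate when it is not passed to the mitochondria. HIF-1, a dimer of HIF-1α (Hif1a) and ARNT, activates the genes of most of these steps, together with genes for blood vessel growth, pH control and mitophagy. Prolyl hydroxylases (Egln1 to Egln3) mark HIF-1α for destruction by the VHL ligase when oxygen is present. Egln3 and Egln1 are themselves HIF targets, and growth factor signalling can raise HIF-1α without hypoxia.

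HIF-1 binds DNA at a core of RCGTG, that is ACGTG or GCGTG. Both were searched on either strand in the 250 bases before the most 5′ RefSeq start of each gene (build GRCm38.p6, whereas the submitters' processing notes name GRCm39). 34 of the 36 genes had a sequence in the RefSeq table. Of these, 27 (79.4%) held at least 1 core, against 38.6% of all 27025 genes of the table and 55.6% of the 10396 that were also tested here. The list was itself chosen for glycolysis and the response to low oxygen, so these shares are a description and no test. The core contains CG, and the windows were not matched for CG content. Shown are the promoters of the 7 genes that were at least 2-fold higher in Sox5 KO than in WT. Capitals mark the cores, as ACGTG or GCGTG on the gene's strand or as CACGT or CACGC where the core lies on the opposite strand. The windows lie at chr7:34230337-34230586 for Gpi1, chr7:126800448-126800697 for Aldoa, chr6:125165774-125166023 for Gapdh and chr10:59951771-59952020 for Ddit4, all on the minus strand. Those on the plus strand lie at chrX:106186850-106187099 for Pgk1, chr7:46845554-46845803 for Ldha and chr4:43506776-43507025 for Car9.
Gpi1: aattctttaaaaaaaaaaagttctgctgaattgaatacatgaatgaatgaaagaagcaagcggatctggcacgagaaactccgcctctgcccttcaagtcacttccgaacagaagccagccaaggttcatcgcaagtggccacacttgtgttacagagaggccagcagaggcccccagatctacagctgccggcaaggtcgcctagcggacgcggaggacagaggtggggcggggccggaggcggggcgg
Aldoa: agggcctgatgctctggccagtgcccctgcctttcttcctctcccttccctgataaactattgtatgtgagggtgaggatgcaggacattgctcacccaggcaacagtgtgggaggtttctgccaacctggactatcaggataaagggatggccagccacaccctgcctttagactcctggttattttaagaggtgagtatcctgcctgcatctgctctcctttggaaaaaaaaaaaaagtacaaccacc
Gapdh: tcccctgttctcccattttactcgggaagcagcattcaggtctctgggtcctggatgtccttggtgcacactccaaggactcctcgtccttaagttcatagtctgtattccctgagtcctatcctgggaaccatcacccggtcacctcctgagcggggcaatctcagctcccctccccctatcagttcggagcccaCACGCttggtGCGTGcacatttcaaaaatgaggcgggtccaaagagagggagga
Pgk1: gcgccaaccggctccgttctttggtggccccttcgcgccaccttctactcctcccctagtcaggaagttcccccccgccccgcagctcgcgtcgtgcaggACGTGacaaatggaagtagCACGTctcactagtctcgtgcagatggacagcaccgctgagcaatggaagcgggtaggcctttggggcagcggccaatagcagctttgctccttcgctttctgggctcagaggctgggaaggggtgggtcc
Ldha: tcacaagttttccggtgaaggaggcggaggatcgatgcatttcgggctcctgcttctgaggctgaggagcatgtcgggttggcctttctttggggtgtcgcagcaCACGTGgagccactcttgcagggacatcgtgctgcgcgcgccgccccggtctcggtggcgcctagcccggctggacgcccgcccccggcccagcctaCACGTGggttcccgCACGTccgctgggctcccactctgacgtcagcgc
Car9: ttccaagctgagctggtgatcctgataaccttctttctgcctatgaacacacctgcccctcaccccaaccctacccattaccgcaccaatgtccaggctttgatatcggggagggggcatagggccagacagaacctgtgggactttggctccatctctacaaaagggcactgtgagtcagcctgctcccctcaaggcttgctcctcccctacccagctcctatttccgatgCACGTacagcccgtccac
Ddit4: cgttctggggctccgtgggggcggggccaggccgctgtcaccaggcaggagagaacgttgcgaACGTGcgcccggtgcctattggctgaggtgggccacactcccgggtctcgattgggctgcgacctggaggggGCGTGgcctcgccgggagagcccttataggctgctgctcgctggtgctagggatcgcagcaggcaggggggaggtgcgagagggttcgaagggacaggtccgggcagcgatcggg
No core was found in the windows of Gpi1 and Aldoa, which says only that these letters are not in those bases. Where a gene had further starts in the RefSeq table, as Aldoa (3 starts) and Hk1 (2 starts), only the most 5′ was searched. Gapdh, Pgk1 and Ddit4 each held 2 cores. Pgk1 had its cores 150 and 131 bases before the start. Ldha held 5 matches, since each of its 2 CACGTG runs carries the core on both strands. Car9, a gene long used as a marker of hypoxia, held 1 core 18 bases before the start. The 4 members that were lower in Sox5 KO than in WT held 3 (Hif1a), 2 (Hk2), 1 (Pfkfb2) and 0 (Hk1) cores. A link between cores and changes in level was not tested. A match is a description of the sequence, not a site of binding.

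Read totals ran from 30205878 to 43498383 counts per library, with Sox5 KO lowest (30205878 to 32788225). Mitochondrial transcripts took 6.06% to 10.3% of the counts, and Xap5 KO was highest (7.89% to 10.3%). Levels are given in CPM, counts scaled to the TMM-normalised library size. Fam50a (Xap5 is an older name of it) was at 7.49 to 7.91 CPM in Xap5 KO against 62.9 to 64.8 in WT. Nono was at 27.6 to 34.0 CPM in Nono KO against 351 to 357. Sox5 was at 45.9 to 49.7 CPM in WT and fell in all 3 lines. It was at 12.6 to 13.9 CPM in Sox5 KO and lower still, at 7.01 to 8.75, in Nono KO. Its mean was 13.7 CPM in Xap5 KO and 13.5 in Sox5 KO, and the ranges of these lines overlapped. Xap5 KO minus Sox5 KO was 0.03 ± 0.12 on the log2 scale (SE, edgeR adjusted p = 0.852). The Sox5 transcript level thus did not set Sox5 KO apart from Xap5 KO. The 9 tested Y-linked genes fell in each knockout line, from a summed level of 199 to 204 CPM in WT to at most 0.390 CPM in any knockout library. All 12 fibroblast markers were above 1 CPM in each group, and their summed level was 51926 to 56756 CPM in Nono KO against 25148 to 25284 in WT. None of the 6 epithelial or 4 endothelial markers exceeded 1 CPM in any group. The 4 leukocyte markers together reached 7.25 to 10.9 CPM in Nono KO and at most 3.38 elsewhere, with Cd3e at 0 in all. The 4 skeletal muscle markers summed to at most 3.86 CPM and the 4 adipocyte markers to at most 1.74. The part of any of these in the results below was not tested.

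Glycolytic transcripts took a larger summed level in all 3 knockout lines than in WT, and the largest in Sox5 KO. In RNA from a whole culture, fewer cells of a kind and less RNA per cell cannot be told apart. The summed level of the 22 rows from glucose uptake to lactate export was 3756 ± 29.6 CPM in WT (SD, n = 2) and 4531 ± 60.2, 4915 ± 101 and 6830 ± 249 in the Xap5, Nono and Sox5 knockouts (n = 3 each). The lowest knockout library (4463 CPM, Xap5 KO) was above the highest WT library (3777), and the 4 groups did not overlap on this TMM scale. The TMM scaling factors were 1.00 to 1.04 in Xap5 KO and 0.944 to 0.955 in Nono KO. The sums were not taken with library totals, so the gap between Xap5 KO and Nono KO is shown for TMM only. Genes were tested one by one with edgeR's quasi-likelihood test over all 13332 genes and called at a Benjamini-Hochberg adjusted p under 0.05. In Sox5 KO 60.9% of all tested genes were called, in Nono KO 48.6% and in Xap5 KO 45.5%. In Sox5 KO, 23 of the 37 rows were called higher than WT and 4 lower (62.2% and 10.8%), where 30.6% of all tested genes were called higher and 30.3% lower. In Nono KO 17 rows were higher and 4 lower (45.9% and 10.8%), against 23.5% and 25.1% of all genes. With library totals in place of TMM, 7 rows were lower in Nono KO, the median of all genes shifted by -0.16, and 30.2% of all calls were higher, where TMM gave 48.4%. Lost in that setting were the higher calls of Gpi1, Pfkm, Slc16a1 and Egln1 in Nono KO (log2 fold changes of 0.05, 0.07, 0.23 and 0.09). In Xap5 KO 12 rows were higher and 6 lower (32.4% and 16.2%), against 23.2% and 22.3%. The median log2 fold change of the 37 rows was 0.48 in Sox5 KO, 0.24 in Nono KO and -0.01 in Xap5 KO, beside -0.01, -0.02 and 0.00 over all tested genes.

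**Figure D1:**
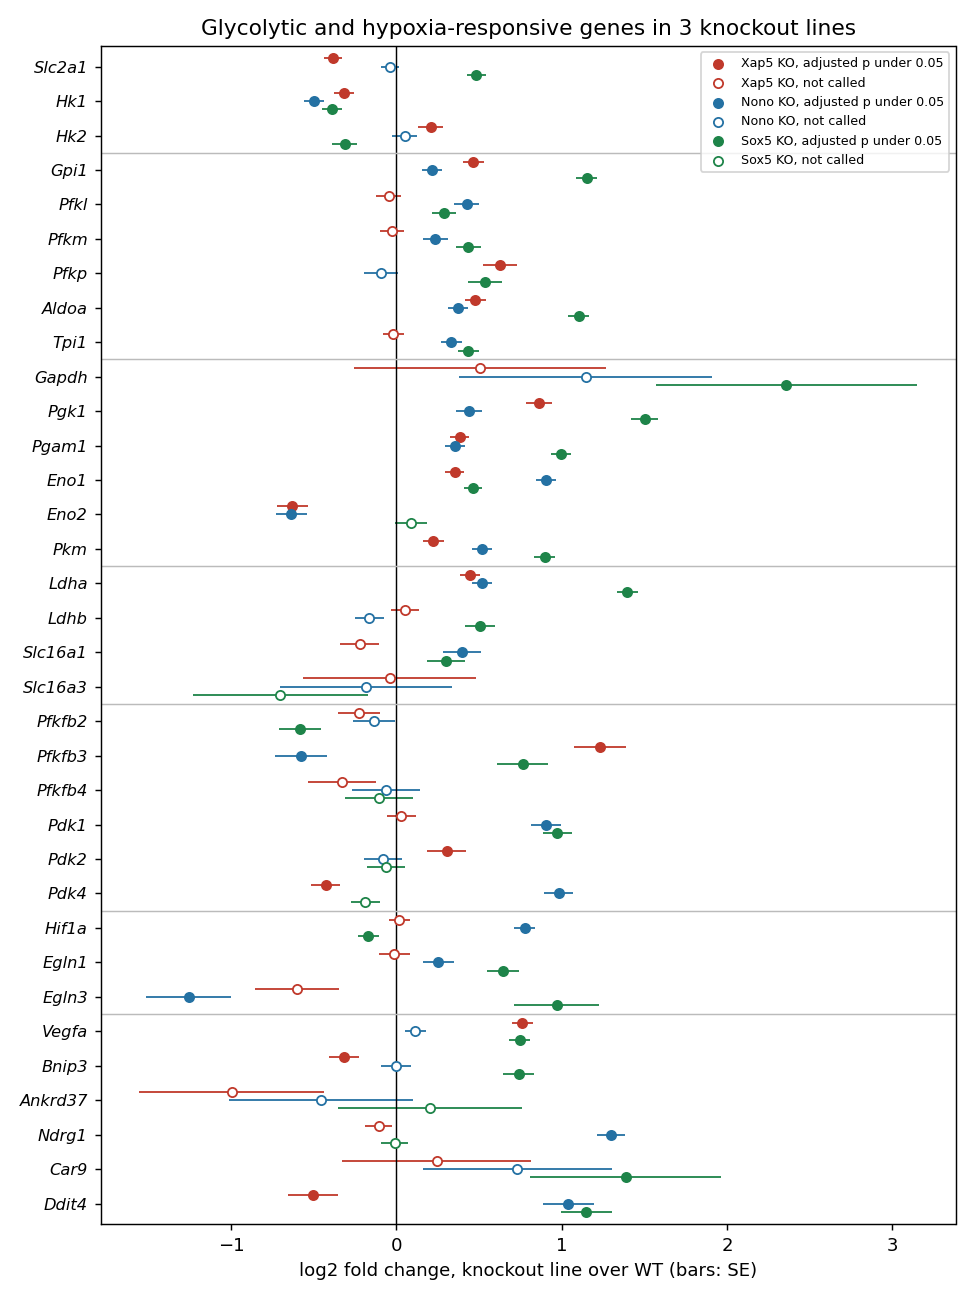
Log2 fold change of 34 of the 37 rows in each knockout line over WT (x axis), by gene (y axis, grouped by role with grey lines); points are edgeR estimates, bars their standard errors, filled points called at adjusted p under 0.05. The Sox5 KO points of Gpi1, Aldoa, Pgk1 and Ldha lie beyond 1, Pfkfb3 and Ndrg1 stand apart in Xap5 KO and Nono KO, and the 3 rows below 1 CPM in every library (Slc2a3, Aldoc and the second Aldoa entry) are not drawn.

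In Xap5 KO and Nono KO changes of at least 2-fold were few, as among all tested genes, and are no result about the list. In Sox5 KO 7 genes passed this size upward and 0 downward (8.3% and 8.87% of all genes): Gpi1, Aldoa, Gapdh, Pgk1, Ldha, Car9 and Ddit4. Just outside it was Pgam1, at a log2 fold change of 1.00 that was a 1.99-fold rise. In Nono KO Ndrg1 and Ddit4 passed upward and Egln3 downward (6.5% and 4.68%), and in Xap5 KO only Pfkfb3 passed, upward (5.67%, with 4.61% of all genes lower). 7 genes were higher than WT in all 3 lines: Gpi1, Aldoa, Pgk1, Pgam1, Eno1, Pkm and Ldha, 18.9% of the rows beside 8.33% of all tested genes. Hk1 was lower in all 3, beside 7.61% of all genes. The 3 comparisons share the same 2 WT libraries and are not independent of each other. All 3 lines also differed from WT in the near absence of the 9 tested Y-linked genes and in a lower Sox5 level. The part of such a common difference between the WT cells and the lines in these shared calls was not tested.

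The knockout lines were also tested against each other directly. 9 rows were higher and 14 lower in Xap5 KO than in Nono KO, where 53% of all tested genes were called (27.1% higher, 25.9% lower). The share of those calls that were higher was 51.1% with TMM and 64.3% with library totals. Against Sox5 KO, 5 rows were higher and 21 lower in Xap5 KO, with 61.6% of all genes called (31.1% and 30.4%). 6 rows were higher and 16 lower in Nono KO than in Sox5 KO, with 63.5% called (30.9% and 32.6%). At 2-fold or more, Pfkfb3 was higher in Xap5 KO than in Nono KO (5.24% of all genes), and Pdk4, Ndrg1 and Ddit4 were lower (5.81%). Gapdh, Egln3, Bnip3, Ankrd37 and Ddit4 were higher in Sox5 KO than in Xap5 KO (7.06% of all genes), and 0 rows were lower (7.91%). The Gapdh call was lost in 9 of 20 alternative fits, among them those without either WT library, any Xap5 KO library, or Sox5 KO replicate 1 or 3, at -2.01 to -1.20 for Xap5 KO minus Sox5 KO. The Ankrd37 call was lost in 10 of 20, among them those without Xap5 KO replicate 1 or 2, Nono KO replicate 1 or 2, or Sox5 KO replicate 1 or 2, at -1.23 to -0.86. Pdk4 and Ndrg1 were higher in Nono KO than in Sox5 KO (9.62%), and Pgk1, Pfkfb3 and Egln3 were lower (7.4%). 12 of the 37 rows (32.4%) were called higher in Sox5 KO than in each of the other 3 groups, beside 16.8% of all tested genes: Slc2a1, Gpi1, Pfkm, Aldoa, Pgk1, Pgam1, Pkm, Ldha, Ldhb, Egln1, Egln3 and Bnip3. 4 rows were highest in Nono KO by the same rule, beside 8.71% of all genes: Eno1, Pdk4, Hif1a and Ndrg1. Pfkfb3 and Pdk2 were highest in Xap5 KO, beside 6.65% of all genes. Slc2a1, Pdk4, Bnip3 and Ddit4 were lowest there, beside 6.68%. Hk2, Pfkfb2 and Hif1a were lowest in Sox5 KO, beside 16.4%, and Pfkfb3 and Egln3 in Nono KO, beside 9.39%. Some of these ranks rest on calls that were lost when 1 library was left out or in another alternative fit. Against WT these included Pdk2, Pdk4, Bnip3 and Ddit4 in Xap5 KO, Hk2 and Hif1a in Sox5 KO and Pfkfb3 in Nono KO, given below. With an offset for each chromosome's median, Egln1 in Xap5 KO minus Sox5 KO was not called (-0.07) and Hif1a turned to -0.41. Egln3 in Xap5 KO minus Nono KO, where the CPM ranges overlapped, was called at 0.66 but not without Xap5 KO replicate 1 (0.41), Nono KO replicate 2 (0.51) or Nono KO replicate 3 (0.55), nor in 2 other of 20 fits. Pdk4 in Xap5 KO minus Sox5 KO, whose ranges also overlapped, was not called without Xap5 KO replicate 3 (-0.15), Sox5 KO replicate 2 (-0.21) or Sox5 KO replicate 3 (-0.20). Pfkm in Nono KO minus Sox5 KO was not called without Nono KO replicate 1 (-0.18), Nono KO replicate 2 (-0.17) or Sox5 KO replicate 2 (-0.16). Pfkfb2 in Xap5 KO minus Sox5 KO was not called without Xap5 KO replicate 3 (0.21) or Sox5 KO replicate 1 (0.28).

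Glucose enters fibroblasts mainly through GLUT1, encoded by Slc2a1 (ENSMUSG00000028645, chromosome 4). Slc2a1 reached 166 and 159 CPM in WT, and was at 122, 126 and 126 in Xap5 KO, at 157, 156 and 162 in Nono KO and at 233, 227 and 222 in Sox5 KO. Every Xap5 KO library was below and every Sox5 KO library above WT, while Nono KO overlapped WT. Its log2 fold change was -0.38 ± 0.06 (SE), -0.04 ± 0.06 and 0.48 ± 0.06 in the Xap5, Nono and Sox5 knockouts, with edgeR adjusted p of 8.34e-06, 0.600 and 1.93e-07. Between Xap5 KO and Sox5 KO the log2 difference was -0.86 ± 0.05 (edgeR adjusted p = 4.60e-12). Slc2a3, the high-affinity neuronal transporter GLUT3, had at most 19 counts in any library and was called in no line (log2 fold changes of -2.50, -1.55 and -2.18).

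Hexokinases trap glucose as glucose 6-phosphate. Hk1, the housekeeping form, fell in all 3 lines, from 165 ± 5.84 CPM in WT to 133 ± 7.00, 117 ± 3.74 and 126 ± 2.37 in the Xap5, Nono and Sox5 knockouts, log2 fold changes of -0.32, -0.50 and -0.39. Hk2, the form that HIF-1 induces, was at 0.21, 0.05 and -0.31 in the Xap5, Nono and Sox5 knockouts, called in the first and the last. Per kilobase of transcript, Hk2 made up 24.2% ± 1.10 of the level of both genes in WT and 31.6% ± 0.891, 31.9% ± 0.846 and 25.2% ± 0.625 in the Xap5, Nono and Sox5 knockouts. Hk1 lies on chromosome 10, where the median gene was at -0.46, -0.14 and -0.32 in the Xap5, Nono and Sox5 knockouts. With an offset for each chromosome's median Hk1 was at 0.15 in Xap5 KO and -0.07 in Sox5 KO, neither called. Hk2 was then at 0.04 in Sox5 KO. Its call in Sox5 KO was also lost without WT replicate 2 (-0.21), and its call in Xap5 KO was lost in 5 of 20 alternative fits, among them those without WT replicate 1 (0.10), Xap5 KO replicate 1 (0.16) and Xap5 KO replicate 2 (0.21).

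**Figure D2:**
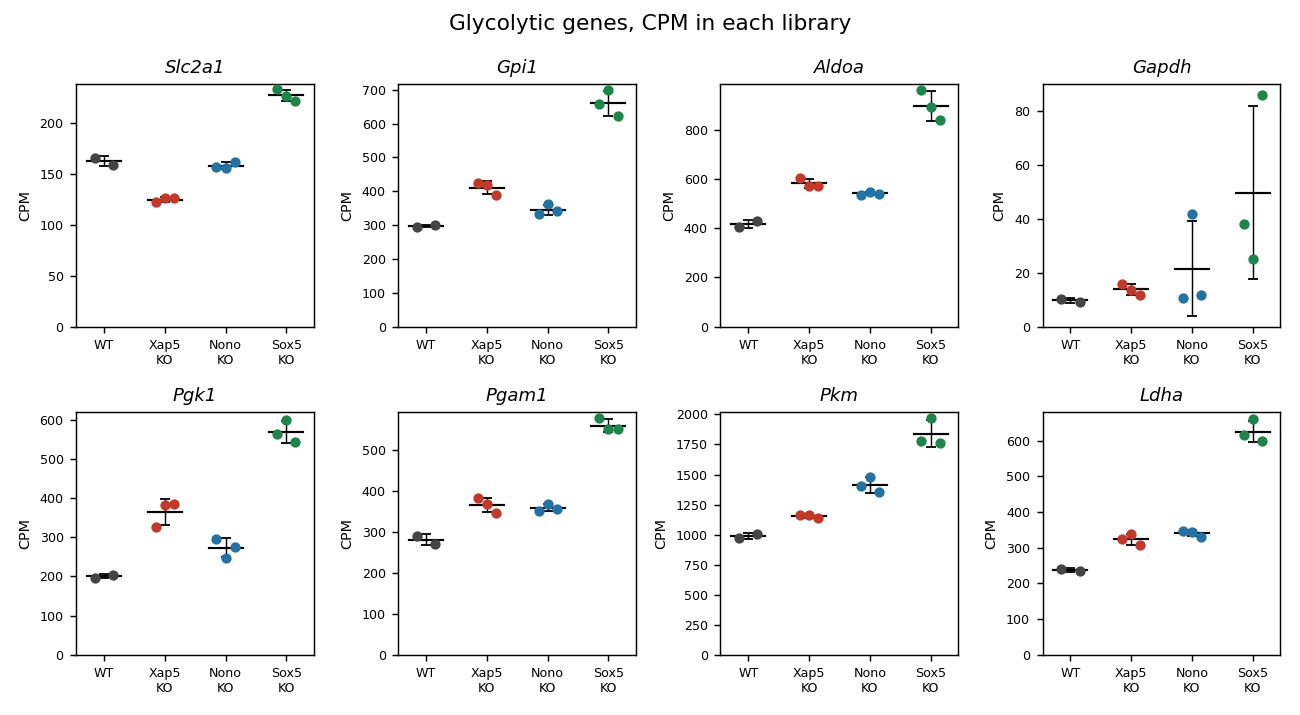
Level in CPM (y axes, from 0) of 8 glycolytic genes in each library (points) by group (x axis); lines are group means and bars the SD. In all 8 panels the 3 Sox5 KO libraries lie above both WT libraries, and Gapdh alone has a wide spread within Nono KO and Sox5 KO.

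The enzymes from glucose 6-phosphate to pyruvate filled 14 rows, of which 7 rose and 1 fell in Xap5 KO, 9 rose and 1 fell in Nono KO and 11 rose and 0 fell in Sox5 KO. As shares of the 14 these are 50% and 7.14%, 64.3% and 7.14%, and 78.6% and 0%, beside 23.2% and 22.3%, 23.5% and 25.1%, and 30.6% and 30.3% of all tested genes. Their median log2 fold change was 0.37, 0.36 and 0.70. Gpi1 (ENSMUSG00000036427, chromosome 7), the isomerase that makes fructose 6-phosphate, was at 295 and 299 CPM in WT. It was at 425, 418 and 388 in Xap5 KO, at 332, 361 and 341 in Nono KO and at 659, 698 and 622 in Sox5 KO. All knockout libraries were above WT, and the Sox5 KO libraries stood above all others. Gpi1 rose 1.38-fold, 1.16-fold and 2.22-fold (log2 0.47, 0.22 and 1.15, SE 0.06 each; edgeR adjusted p of 3.47e-06, 0.00725 and 2.41e-12). The Nono KO call was lost with library totals in place of TMM (0.05) and without WT replicate 1 (0.21).

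Phosphofructokinase commits the sugar to glycolysis, and its 3 genes did not move alike. Pfkl, the liver form, and Pfkm, the muscle form, rose in Nono KO (log2 0.43 and 0.24) and Sox5 KO (0.29 and 0.43) and were at -0.05 and -0.03 in Xap5 KO. Pfkp, the platelet form and the least abundant of the 3 per kilobase, rose in Xap5 KO (0.63) and Sox5 KO (0.54) and was at -0.09 in Nono KO. Its share of the 3 genes per kilobase was 10.2% in WT and 15.2%, 7.76% and 11.3% in the Xap5, Nono and Sox5 knockouts. The Pfkm call in Nono KO was lost in 4 of 20 alternative fits, among them those without WT replicate 1 (0.21) and Nono KO replicate 3 (0.19), and the Pfkl call in Sox5 KO without WT replicate 2 (0.23) and with library totals (0.17). With the chromosome offset Pfkl was called higher in Xap5 KO as well (0.42). 16.6% of the 75-base windows of Pfkp also occur in Pitrm1, which overlaps it on the opposite strand.

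Aldolase A (Aldoa, ENSMUSG00000030695, chromosome 7) splits fructose 1,6-bisphosphate into triose phosphates. Aldoa was at 407 and 430 CPM in WT, at 604, 574 and 572 in Xap5 KO, at 536, 549 and 541 in Nono KO and at 962, 893 and 842 in Sox5 KO. The Sox5 KO libraries stood above all others, and no knockout library overlapped WT. The log2 fold change was 0.48, 0.37 and 1.10 (SE 0.06 each; edgeR adjusted p of 1.77e-06, 3.30e-05 and 3.01e-12). Xap5 KO and Nono KO differed from each other by 0.11 ± 0.05, which was not called (edgeR adjusted p = 0.111). Aldoc, the brain form, had 2 and 34 counts in the WT libraries and was not called against WT in any line (-3.19, -2.49 and -1.88). The second Aldoa entry was not called in any line either (0.93, 0.50 and 0.86). These rows rest on few counts. With 1 library left out, Aldoc ranged from -4.09 to -0.21, from -6.98 to 0.50 and from -2.78 to 1.09, and was called only in Nono KO without its replicate 3 (-6.98). The second Aldoa entry ranged from 0.19 to 2.55, from -0.23 to 2.13 and from 0.12 to 2.48. Tpi1, the isomerase that equalises the triose phosphates, rose in Nono KO (0.33) and Sox5 KO (0.44) and was at -0.02 in Xap5 KO. With the chromosome offset Tpi1 was called higher in Xap5 KO as well (0.23).

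Pgk1 (ENSMUSG00000062070, chromosome X), phosphoglycerate kinase, makes the first ATP of the pathway. Pgk1 was at 197 and 205 CPM in WT, at 327, 382 and 385 in Xap5 KO, at 296, 248 and 274 in Nono KO and at 564, 599 and 542 in Sox5 KO. The 4 groups did not overlap, in the order WT, Nono KO, Xap5 KO, Sox5 KO. It rose 1.82-fold, 1.36-fold and 2.83-fold in the Xap5, Nono and Sox5 knockouts (SE 0.08 each on the log2 scale; edgeR adjusted p of 2.19e-08, 8.94e-05 and 2.53e-12). The median gene of chromosome X was at 0.36, -0.33 and 0.14 in the same 3 lines. Xap5 KO was above Nono KO by a log2 of 0.42, and with the chromosome offset this difference turned to -0.27. 67.5% of the 75-base windows of Pgk1 also occur in another annotated gene, chiefly the retrotransposed copy Pgk1-rs7, which has no row in the table.

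Pgam1, Eno1 and Pkm carry the carbon from 3-phosphoglycerate to pyruvate, and all 3 rose in all 3 lines. Pgam1, the mutase, rose by a log2 of 0.38, 0.35 and 1.00 in the Xap5, Nono and Sox5 knockouts, and the median gene of its chromosome 19 was at 0.39 in Sox5 KO. 40.6% of the windows of Pgam1 also occur in other annotated genes, chiefly Pgam1-ps2, which has no row in the table. Pkm, pyruvate kinase, was the most abundant enzyme of the group per kilobase and rose by 0.22, 0.52 and 0.90. The Xap5 KO call of Pkm was lost without WT replicate 1 (0.19) and with the chromosome offset (0.11). Eno1, the general enolase, was highest in Nono KO, at 631 ± 23.5 CPM against 337 ± 0.923 in WT, 430 ± 9.34 in Xap5 KO and 464 ± 18.0 in Sox5 KO. Its log2 fold change was 0.35, 0.91 and 0.46, and Nono KO exceeded Sox5 KO by 0.44 ± 0.05 (edgeR adjusted p = 1.33e-07). 64.2% of the windows of Eno1 also occur in Eno1b, a near-identical copy that took 28.7% to 35.7% of the counts of both in the 11 libraries. Eno2, the neuronal enolase, went the other way in 2 lines, at -0.63 in Xap5 KO and -0.64 in Nono KO, both called, and stood at 0.09 in Sox5 KO. Eno2 made up 20.6% of Eno1, Eno2 and Eno3 together per kilobase in WT and 11.5%, 8.13% and 16.2% in the Xap5, Nono and Sox5 knockouts.

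Gapdh (ENSMUSG00000057666, chromosome 6), the dehydrogenase between the triose phosphates and Pgk1, was counted far below its neighbours in the pathway. Per kilobase it was at 6.82 CPM in WT, the 43.8th percentile of the tested genes, where Pkm was at 406 and Pgk1 at 110. 80.3% of its 75-base windows occur in other annotated genes, 121 in all, of which 4 have rows in the table. Gapdh was at 10.4 and 9.01 CPM in WT, at 15.9, 13.6 and 11.7 in Xap5 KO, at 10.5, 41.7 and 11.8 in Nono KO and at 38.1, 25.0 and 86.0 in Sox5 KO. Nono KO replicate 2 and Sox5 KO replicate 3 stood apart from the other libraries of their groups. The log2 fold change was 0.51 ± 0.76, 1.15 ± 0.76 and 2.36 ± 0.79, with only Sox5 KO called (edgeR adjusted p = 0.0336). Without Nono KO replicate 2 the Nono KO value was 0.21. The Sox5 KO call was lost in 6 of 20 alternative fits. Among these the value was 1.70 without Sox5 KO replicate 3 and 2.46 without WT replicate 1. It was 2.26 without WT replicate 2 and 2.35 without Xap5 KO replicate 2. The level of Gapdh is uncertain, since the counting could split its reads among these copies.

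Lactate dehydrogenase A (Ldha, ENSMUSG00000063229, chromosome 7) turns pyruvate into lactate. Ldha was at 241 and 235 CPM in WT, at 324, 339 and 308 in Xap5 KO, at 346, 344 and 331 in Nono KO and at 617, 659 and 600 in Sox5 KO. Xap5 KO and Nono KO overlapped each other, and Sox5 KO stood above both. Ldha rose 1.36-fold, 1.43-fold and 2.63-fold (log2 0.45, 0.52 and 1.40, SE 0.06 each; edgeR adjusted p of 3.40e-06, 3.86e-07 and 7.14e-14). Nono KO minus Sox5 KO was -0.88 ± 0.05 (edgeR adjusted p = 7.74e-12). Ldhb, the form that favours lactate oxidation, rose in Sox5 KO (0.51) and was at 0.05 and -0.16 in Xap5 KO and Nono KO. Ldha made up 75.3% ± 0.622 of the 2 genes per kilobase in WT, 77.9% to 82.0% over the Xap5 KO libraries, 83.0% ± 0.521 in Nono KO and 85.0% ± 0.419 in Sox5 KO. Of WT, the highest library was at 75.7%, below every knockout library. Slc16a1, the lactate carrier MCT1, rose in Nono KO (0.40) and Sox5 KO (0.30) and was at -0.22 in Xap5 KO. Its Sox5 KO call was lost in 6 of 20 alternative fits, among them those without WT replicate 1 (0.29), WT replicate 2 (0.30), Sox5 KO replicate 1 (0.26) and Sox5 KO replicate 3 (0.31), and its Nono KO call with library totals (0.23). Without Xap5 KO replicate 3 Slc16a1 was called lower in Xap5 KO (-0.37). Slc16a3, the hypoxia-induced lactate exporter MCT4, was at most 1.66 CPM and was called in no line (-0.04, -0.18 and -0.70).

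The PFKFB enzymes set the level of fructose 2,6-bisphosphate, the strongest activator of phosphofructokinase. Pfkfb3 (ENSMUSG00000026773, chromosome 2), the form with the highest kinase activity, was at 8.11 and 6.72 CPM in WT, at 17.8, 16.3 and 18.1 in Xap5 KO, at 4.96, 5.55 and 4.36 in Nono KO and at 11.4, 13.7 and 12.6 in Sox5 KO. The 4 groups did not overlap, and Nono KO was the only line below WT. Its log2 fold change was 1.23 ± 0.16, -0.58 ± 0.16 and 0.76 ± 0.16 in the Xap5, Nono and Sox5 knockouts (edgeR adjusted p of 1.56e-06, 0.00418 and 0.000240). The call in Nono KO was lost without WT replicate 1 (-0.43). Between Xap5 KO and Nono KO Pfkfb3 differed by 1.81 ± 0.14 (edgeR adjusted p = 7.91e-10). Per kilobase Pfkfb3 made up 15.1% of Pfkfb2, Pfkfb3 and Pfkfb4 together in WT and 33.5%, 11.4% and 29.1% in the Xap5, Nono and Sox5 knockouts. Pfkfb2, the heart form, fell in Sox5 KO (-0.58) and was at -0.23 and -0.13 in Xap5 KO and Nono KO. 24.3% of the windows of Pfkfb2 also occur in Gm29427, which overlaps it on the same strand and has its own row. Pfkfb4, the testis form, was called in no line (-0.33, -0.06 and -0.11). Without Xap5 KO replicate 3 both Pfkfb2 and Pfkfb4 were called lower in Xap5 KO, at -0.38 and -0.57.

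Pyruvate dehydrogenase kinases shut pyruvate out of the mitochondria by inactivating pyruvate dehydrogenase. Pdk1, a HIF-1 target, rose in Nono KO and Sox5 KO, from 31.4 ± 3.19 CPM in WT to 58.9 ± 1.85 and 61.7 ± 4.12 (log2 0.91 and 0.97), and stood at 32.1 ± 1.24 in Xap5 KO (0.03). Pdk4, the form induced by fasting, rose in Nono KO, from 172 ± 2.89 to 340 ± 24.8 CPM (0.98). It fell in Xap5 KO (-0.43) and was at -0.19 in Sox5 KO. Both genes were thus called higher in Nono KO, and the Pdk4 difference of Nono KO minus Sox5 KO was 1.17 ± 0.08 (edgeR adjusted p = 5.71e-10). Pdk2 rose in Xap5 KO (0.30) and was at -0.08 and -0.06 in the other lines. Pdk4 held 59.9% of Pdk1 to Pdk4 together per kilobase in WT and 45.8%, 74.6% and 51.4% in the Xap5, Nono and Sox5 knockouts. The Pdk2 call was lost in 6 of 20 alternative fits, among them those without WT replicate 1 (0.19), Xap5 KO replicate 1 (0.19) and Xap5 KO replicate 3 (0.31), and the Pdk4 call in Xap5 KO with the chromosome offset (-0.18). Pdk4 was called lower in Sox5 KO without Xap5 KO replicate 2 (-0.20) or replicate 3 (-0.20), with library totals (-0.30) and with only the libraries of those 2 groups (-0.20).

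**Figure D3:**
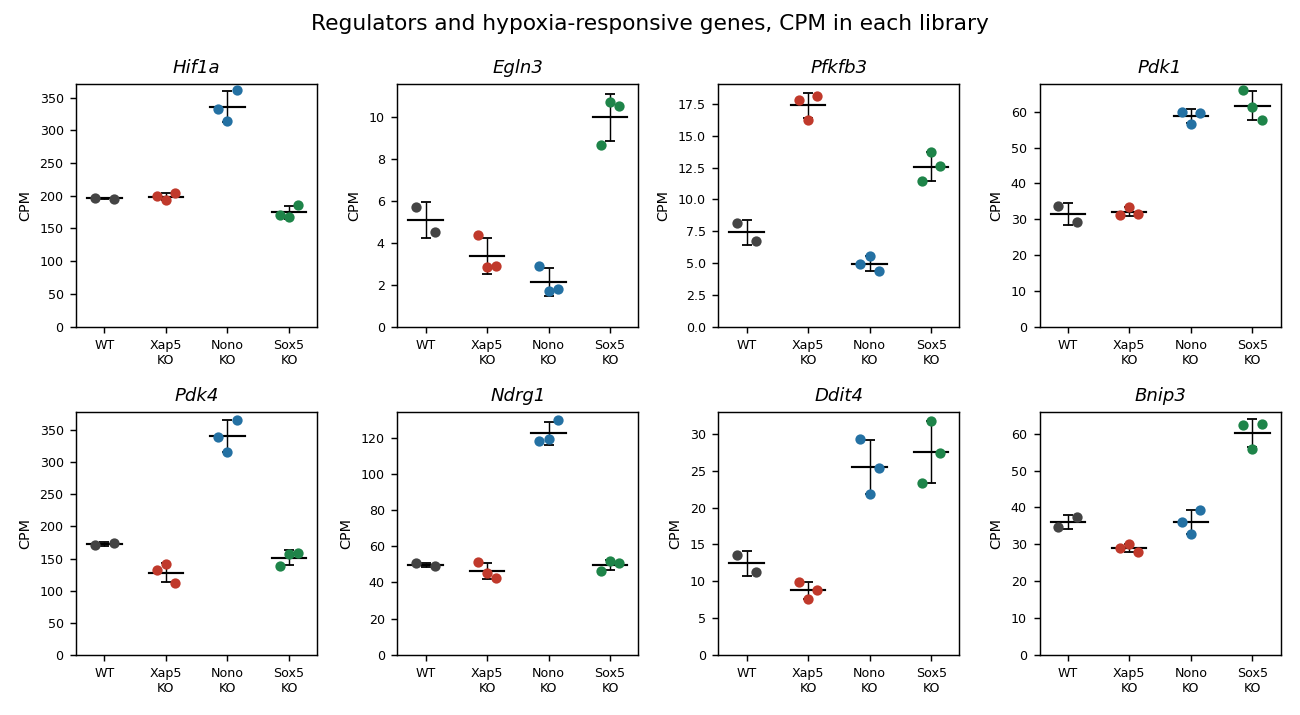
Level in CPM (y axes, from 0) of 8 regulators and hypoxia-responsive genes in each library (points) by group (x axis); lines are group means and bars the SD. Hif1a, Pdk4 and Ndrg1 are highest in the 3 Nono KO libraries, Pfkfb3 in Xap5 KO and Egln3 and Bnip3 in Sox5 KO.

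Hif1a (ENSMUSG00000021109, chromosome 12) was at 197 and 196 CPM in WT, at 199, 193 and 204 in Xap5 KO, at 332, 314 and 361 in Nono KO and at 170, 168 and 186 in Sox5 KO. Every Nono KO library stood above WT, every Sox5 KO library lay just below it, and Xap5 KO overlapped it. The log2 fold change was 0.02 ± 0.06, 0.78 ± 0.07 and -0.17 ± 0.06 (edgeR adjusted p of 0.842, 3.34e-09 and 0.0287). The line with the highest glycolytic levels, Sox5 KO, was thus the one with the lowest Hif1a transcript level. The median gene of chromosome 12 was at -0.75 in Sox5 KO, and with the chromosome offset Hif1a was at 0.58 there (edgeR adjusted p = 1.66e-07). Without the offset the Sox5 KO call was lost without WT replicate 1 (-0.17), WT replicate 2 (-0.18), Sox5 KO replicate 1 (-0.15) or Sox5 KO replicate 2 (-0.14). HIF-1α is controlled mainly at the protein level, which these libraries do not measure.

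Egln3 (ENSMUSG00000035105, chromosome 12), the prolyl hydroxylase most strongly induced by HIF, was at 5.71 and 4.49 CPM in WT, at 4.35, 2.82 and 2.91 in Xap5 KO, at 2.91, 1.68 and 1.80 in Nono KO and at 8.69, 10.7 and 10.5 in Sox5 KO. Nono KO lay below WT and Sox5 KO above it, the reverse of the order of Hif1a in these 2 lines. With the chromosome offset, though, Hif1a was above WT in Sox5 KO too (0.58). The log2 fold change of Egln3 was -1.26 ± 0.26 in Nono KO and 0.97 ± 0.26 in Sox5 KO (edgeR adjusted p of 0.000358 and 0.00249). It was -0.60 ± 0.25 in Xap5 KO, which was not called (0.0583). In Xap5 KO it was called in 4 alternative fits, among them those without Xap5 KO replicate 1 (-0.84) and Nono KO replicate 1 (-0.60). Nono KO minus Sox5 KO was -2.23 ± 0.24 (edgeR adjusted p = 5.15e-08). Egln1, the main oxygen sensor of most cells, rose in Nono KO (0.25) and Sox5 KO (0.65) and was at -0.01 in Xap5 KO. Its Nono KO call was lost in 4 of 20 alternative fits, among them those without WT replicate 2 (0.17), Nono KO replicate 1 (0.25) and Nono KO replicate 2 (0.19). With the chromosome offset Egln1 was called higher in Xap5 KO (0.34).

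Of the 6 hypoxia-responsive targets outside glycolysis, 4 rose in Sox5 KO, 2 in Nono KO and 1 in Xap5 KO, where 2 fell. The Xap5 KO and Nono KO counts, 16.7% higher and 33.3% lower and 33.3% higher, are near the shares of all tested genes (23.2% and 22.3%, and 23.5% higher), while 66.7% were higher in Sox5 KO beside 30.6%. Ndrg1 (ENSMUSG00000005125, chromosome 15), a stress-induced regulator of differentiation, was at 50.6 and 49.0 CPM in WT, at 51.1, 45.0 and 42.6 in Xap5 KO, at 118, 119 and 130 in Nono KO and at 46.2, 51.6 and 50.5 in Sox5 KO. Its rise was seen in every Nono KO library, and the other 2 lines overlapped WT. It rose 2.46-fold in Nono KO (edgeR adjusted p = 4.09e-11), and its log2 fold change was -0.11 ± 0.08 in Xap5 KO and -0.01 ± 0.08 in Sox5 KO. Nono KO exceeded Sox5 KO by 1.31 ± 0.07 (edgeR adjusted p = 2.12e-12). Ddit4 (ENSMUSG00000020108, chromosome 10), also called REDD1, restrains mTORC1 under stress. Ddit4 was at 13.6 and 11.3 CPM in WT, at 9.88, 7.59 and 8.81 in Xap5 KO, at 29.3, 21.9 and 25.4 in Nono KO and at 23.4, 31.8 and 27.5 in Sox5 KO. Xap5 KO lay below WT, and the other 2 lines lay above it and overlapped each other. Ddit4 fell by 0.50 ± 0.15 on the log2 scale in Xap5 KO and rose by 1.04 ± 0.15 and 1.15 ± 0.15 in Nono KO and Sox5 KO (edgeR adjusted p of 0.0105, 8.96e-06 and 1.49e-06). The fall in Xap5 KO was not called without WT replicate 1 (-0.37) or with the chromosome offset (-0.04), the median gene of chromosome 10 being at -0.46.

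Vegfa, the main growth factor of blood vessels, rose in Xap5 KO (0.76) and Sox5 KO (0.75) and was at 0.11 in Nono KO. Xap5 KO minus Sox5 KO was 0.02 ± 0.06 (edgeR adjusted p = 0.808), and Xap5 KO exceeded Nono KO by 0.65 ± 0.06. Bnip3, a mitophagy receptor, rose in Sox5 KO (0.74), fell in Xap5 KO (-0.31) and was at 0.999 of its WT level in Nono KO. The Xap5 KO call of Bnip3 was lost without WT replicate 2 (-0.27), and 46.3% of the windows of Bnip3 occur in other annotated genes. Car9 (ENSMUSG00000028463, chromosome 4), a carbonic anhydrase that exports acid equivalents, was at 0.595 and 0.681 CPM in WT, at 0.978, 0.803 and 0.489 in Xap5 KO, at 1.60, 0.999 and 0.580 in Nono KO and at 1.73, 1.83 and 1.47 in Sox5 KO. The Sox5 KO libraries lay above WT, while Xap5 KO and Nono KO overlapped it, at log2 fold changes of 0.24 and 0.73. It rose by a log2 of 1.39 ± 0.58 in Sox5 KO (edgeR adjusted p = 0.0439). That call was lost with library totals (1.27) and without WT replicate 1 (1.29), WT replicate 2 (1.48), Sox5 KO replicate 1 (1.36), Sox5 KO replicate 2 (1.32) or Sox5 KO replicate 3 (1.47). Ankrd37, a HIF target of unclear role, was at most 2.37 CPM and was called against WT in no line. It stood at 0.502 of its WT level in Xap5 KO (edgeR adjusted p = 0.156), and its log2 fold change was -0.46 in Nono KO and 0.20 in Sox5 KO. With 1 library left out, the log2 fold changes in the 3 lines ranged from -1.52 to -0.21, from -0.96 to 0.35 and from -0.32 to 0.996.

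Further genes of the same pathways came from lists beside the 36. Of 8 tested other isozymes, 3 rose and 1 fell in Xap5 KO, 1 rose and 2 fell in Nono KO, and 2 rose and 0 fell in Sox5 KO. With 23.2% and 22.3%, 23.5% and 25.1%, and 30.6% and 30.3% of all tested genes higher and lower in these lines, counts this small are no result about the list. Eno3, the muscle enolase, rose in all 3 lines, by a log2 of 0.84, 1.22 and 1.54, and was highest in Sox5 KO, at 20.8 to 24.5 CPM against 7.63 to 7.99 in WT. Slc2a6, a lysosomal hexose transporter, rose in Xap5 KO (0.98) and Sox5 KO (1.86) and was at -0.02 in Nono KO. Of 11 tested other regulators of HIF, 1 rose and 1 fell in Xap5 KO, 2 rose and 4 fell in Nono KO, and 4 rose and 5 fell in Sox5 KO. In Xap5 KO that is 9.09% each way, below the shares of all genes, and in Sox5 KO 36.4% and 45.5%, beside 30.6% and 30.3%. In Nono KO 18.2% rose and 36.4% fell, beside 23.5% and 25.1%. Elob, a subunit of the VHL ligase complex, rose in all 3 (0.51, 0.37 and 1.10). Epas1, which encodes HIF-2α, was at 0.521 and 0.159 CPM in WT, at 0.952 to 1.39 in Xap5 KO and at 0.765 to 0.967 in Nono KO, and in Sox5 KO it was at 0.155 in 1 library and at 0 in the other two. It was called lower in Sox5 KO than in WT (edgeR adjusted p = 0.0312), a call lost with the replicate block and without WT replicate 1, Sox5 KO replicate 2 or Sox5 KO replicate 3 (adjusted p of 0.0532, 0.323, 0.103 and 0.106). It was also called higher in Xap5 KO and in Nono KO than in Sox5 KO (edgeR adjusted p of 0.000283 and 0.000775), in all 19 alternative fits that held it.

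Of 21 tested other hypoxia-responsive targets, 5 rose and 10 fell in Xap5 KO, 10 rose and 5 fell in Nono KO, and 10 rose and 6 fell in Sox5 KO, with median log2 fold changes of -0.24, 0.34 and -0.03. The 23.8% higher in Xap5 KO, the 23.8% lower in Nono KO and the 28.6% lower in Sox5 KO were near the shares of all genes (23.2%, 25.1% and 30.3%). The 47.6% lower in Xap5 KO, higher in Nono KO and higher in Sox5 KO stand beside 22.3%, 23.5% and 30.6%. Adm, the vasodilator peptide adrenomedullin, was at 6.55 and 7.42 CPM in WT, at 56.4, 54.2 and 36.2 in Xap5 KO, at 105, 110 and 93.5 in Nono KO and at 92.7, 87.0 and 93.0 in Sox5 KO. Every knockout library was far above WT, and the rises were 7.00-fold, 14.7-fold and 13.0-fold (edgeR adjusted p of 5.15e-07, 3.46e-08 and 2.68e-08). Stc2, a secreted glycoprotein of the stress response, rose by 1.15, 2.41 and 2.55, and P4ha2, a collagen prolyl hydroxylase, by 0.99, 1.02 and 1.61. Angptl4, a secreted inhibitor of lipoprotein lipase, went the other way. It was at 151 and 135 CPM in WT, at 104, 101 and 82.0 in Xap5 KO, at 98.2, 89.7 and 94.9 in Nono KO and at 22.6, 20.8 and 24.6 in Sox5 KO. All knockout libraries were below WT and Sox5 KO was lowest, with log2 fold changes of -0.58, -0.60 and -2.66 (edgeR adjusted p of 2.51e-05, 1.41e-05 and 8.40e-15).

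The median log2 fold change differed between chromosomes in these lines, and the values above stand beside those medians. A median does not show whether all genes of a chromosome moved. Leaving out chromosome Y and the mitochondrial genome, the median log2 fold change of a chromosome ran from -0.46 (chromosome 10) to 0.36 (X) in Xap5 KO, from -0.33 (X) to 0.35 (chromosome 9) in Nono KO and from -0.75 (chromosome 12) to 0.39 (chromosome 19) in Sox5 KO. Gpi1, Aldoa, Ldha and Bnip3 all lie on chromosome 7, at a median of 0.18 in Sox5 KO. Hk2, Tpi1, Gapdh, Eno2, Ldhb and Pdk4 lie on chromosome 6, at -0.35 there. With the chromosome offset the number of rows called lower was 3 in Xap5 KO and 1 in Sox5 KO, and the median log2 fold change of the rows became 0.17 and 0.61. Whether a member moved with its chromosome or apart from it was not tested beyond this offset.

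**Figure D4:**
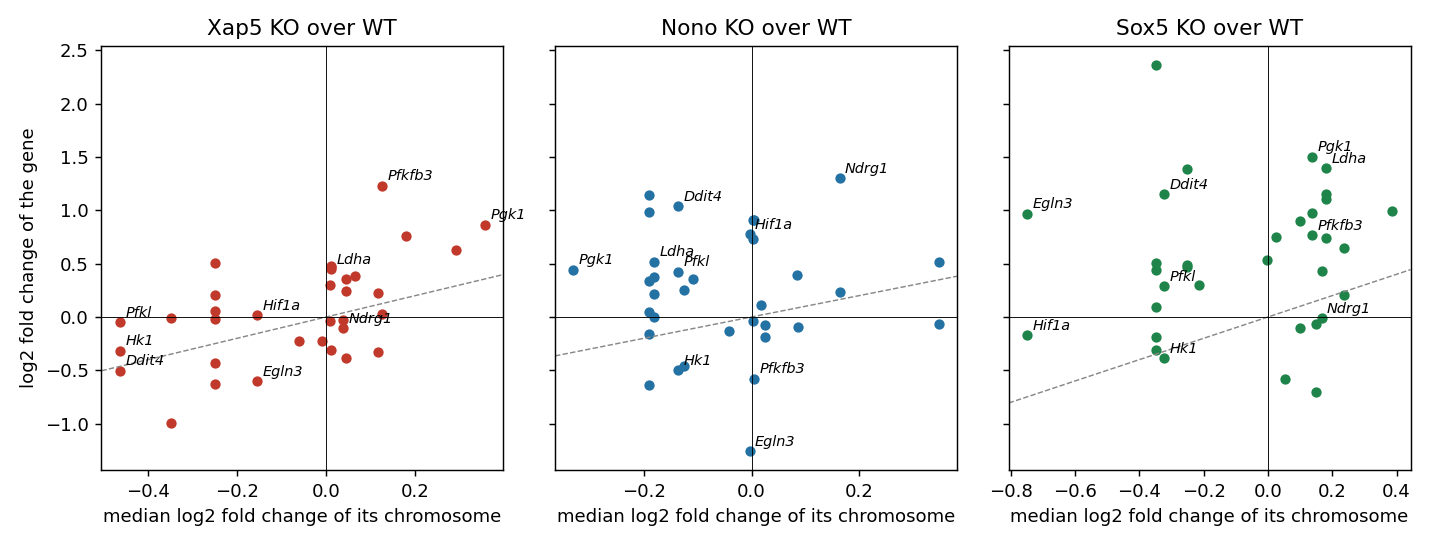
Log2 fold change of 34 rows over WT (y axis) against the median log2 fold change of all tested genes on the same chromosome (x axis, log2), 1 panel for each knockout line; the dashed line marks equality. In the Sox5 KO panel Hif1a and Egln3 sit at the chromosome 12 median of -0.75, and both lie above the line, as do Pgk1 and Ldha.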

How the data were processed

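RNA-seq was read from 11 libraries of serum-starved NIH/3T3 cells. The authors deposited estimated counts per gene, whole numbers in the file. The submitters' processing notes name HISAT2 2.1.0, StringTie 1.3.3b, DESeq2 1.12.4 and GRCm39. Annotation and strand setting are not given in the sources used here. Gene IDs were matched to GENCODE M21 (GRCm38), which held 21540 of the 21684, so coordinates are printed for promoter windows only.

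edgeR 4.0.16 (R 4.3.3) was run on all 11 libraries with TMM scaling, a minimum count of 10 and a robust quasi-likelihood fit of 1 mean per group (7 residual degrees of freedom). The test was two-sided, and p was adjusted by Benjamini-Hochberg over 13332 genes, with calls at an adjusted p under 0.05. SE is the log2 fold change over the root of the test's F. Shared sequence was counted in 75-base windows. Scripts were tested on simulated data. Depth was 30205878 to 43498383 counts, with a median of 1002 counts for a tested gene.

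Alternatives were DESeq2 1.42.0, limma-voom 3.58.1, other scalings and filters, 2 groups only, a replicate block, a chromosome median offset (each chromosome's median fold change subtracted before the fit), each library left out, and a 2-fold minimum. Eno1 and Eno1b were also summed, an alternative chosen after seeing the data. The members and lists were chosen with earlier results of these data known. All 36 members are named. Of each other list, up to 4 genes past the threshold and 2-fold in a line are named.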

Additional observations from a re-analysis of the deposited data

How the results depend on the processing

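Of the calls against WT, 11 of 18 in Xap5 KO, 16 of 21 in Nono KO and 20 of 27 in Sox5 KO held in every alternative fit that kept the same threshold, the 2-fold minimum aside. With library totals in place of TMM the median of all genes shifted by -0.05, -0.16 and -0.11 for the Xap5, Nono and Sox5 knockouts against WT and by 0.11 for Xap5 KO against Nono KO. The share of calls that were higher went from 50.9%, 48.4% and 50.2% to 43.9%, 30.2% and 41.0%, and to 64.3% for Xap5 KO against Nono KO. The members' median then was -0.065, 0.073 and 0.37 in the Xap5, Nono and Sox5 knockouts against WT and -0.40 for Xap5 KO against Sox5 KO, and 7 members were lower in Nono KO. The higher calls of Gpi1, Pfkm, Slc16a1 and Egln1 in Nono KO were lost. With the chromosome median offset 3 members were lower in Xap5 KO and 1 in Sox5 KO, and the medians were 0.17, 0.61 and, for Xap5 KO against Sox5 KO, -0.42. This offset turned the sign in Xap5 KO for Hk1 (0.15), Pfkl (0.42), Tpi1 (0.23), Egln1 (0.34) and Pgls (0.060), and in Sox5 KO for Hk2 (0.038) and Hif1a (0.58). It also did so for Pgk1 (-0.27) and Pgam1 (-0.14) in Xap5 KO against Nono KO, and for Hif1a (-0.41) and Vegfa (-0.14) in Xap5 KO against Sox5 KO. With it Ldhb (0.30) and Hif1a (0.17) in Xap5 KO, Hk2 (0.24) in Nono KO and Eno2 (0.44) in Sox5 KO were also called higher than WT. The offset removes each chromosome's own median by construction. Why the chromosome medians differed was not tested. At 2-fold or more, members higher and lower were 1 and 0 for Xap5 KO against WT, 2 and 1 for Nono KO against WT and 7 and 0 for Sox5 KO against WT. They were 1 and 3 for Xap5 KO against Nono KO, 0 and 5 for Xap5 KO against Sox5 KO and 2 and 3 for Nono KO against Sox5 KO. All genes called at that size were 1370, 1491 and 2289 against WT and 1474, 1995 and 2269 between knockouts. Leaving out 1 library at a time gave a members' median of -0.047 to 0.011 in Xap5 KO, 2 to 5 members lower in Sox5 KO, and medians of -0.28 to -0.092, -0.58 to -0.46 and -0.41 to -0.22 between Xap5 KO and Nono KO, Xap5 KO and Sox5 KO, and Nono KO and Sox5 KO. In these fits 9 to 12 members were higher than WT in Xap5 KO, 15 to 17 in Nono KO and 19 to 23 in Sox5 KO. Members lower than WT were 5 to 9 in Xap5 KO and 3 to 5 in Nono KO. Eno2 in Xap5 KO against Nono KO ranged from -0.15 to 0.067 and was called only without Xap5 KO replicate 3, at -0.15.

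The labels give each group the replicate numbers 1 to 3 (WT 1 and 2), but same-numbered libraries did not deviate together (r of -0.03 to 0.06 over 15 pairs, 0 over 0.1), and 4 of 11 libraries correlated best with their own number. With the replicate block 21 members were higher in Sox5 KO, 17 in Nono KO and 12 in Xap5 KO, and all genes called were 7911, 6340 and 5916 beside 8121, 6476 and 6064. Low counts limit Car9, Egln3, Epas1 and the rows near 1 CPM, where a change of this size may not be detectable.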

Other observations

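The pentose phosphate pathway, which branches from glucose 6-phosphate to make NADPH and ribose, had 6 of its 7 tested genes called higher and 1 lower in Sox5 KO (median log2 fold change 0.78), where 30.6% of all tested genes were higher and 30.3% lower. In Nono KO 0 were higher and 3 lower (-0.16), and in Xap5 KO 2 were higher and 2 lower (0.12), beside 23.5% and 25.1%, and 23.2% and 22.3%, of all genes. Against Nono KO directly, 6 of the 7 were higher in Sox5 KO and 1 lower, beside 32.6% and 30.9% of all genes. Tkt, transketolase, was at 125 and 130 CPM in WT, at 168, 154 and 159 in Xap5 KO, at 144, 149 and 129 in Nono KO and at 311, 313 and 285 in Sox5 KO. The Sox5 KO libraries stood above all others (log2 fold change 1.25 ± 0.07, edgeR adjusted p = 2.41e-12). Taldo1, transaldolase, moved in opposite directions, at 1.01 in Sox5 KO and -0.53 in Nono KO against WT. Pgls, the lactonase of the oxidative branch, rose in Sox5 KO (1.07) and fell in Xap5 KO (-0.29), the latter not called without WT replicate 1 (-0.20) and at 0.06 with the chromosome median offset, where the median gene of its chromosome was at -0.35.

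Of the 10 tested genes for entry of pyruvate into mitochondria, 6 rose and 3 fell in Sox5 KO, 2 rose and 1 fell in Nono KO, and 4 rose and 2 fell in Xap5 KO. Of all tested genes 30.6% and 30.3%, 23.5% and 25.1%, and 23.2% and 22.3% did so, and apart from the risers in Sox5 KO and Xap5 KO the counts were near or below those shares. Mpc1, a subunit of the mitochondrial pyruvate carrier, was at 21.3 and 19.5 CPM in WT, at 28.4, 26.1 and 26.5 in Xap5 KO, at 32.5, 30.2 and 32.8 in Nono KO and at 53.7, 46.6 and 44.2 in Sox5 KO. The 4 groups did not overlap, and its log2 fold changes were 0.40, 0.64 and 1.24. The Xap5 KO call was lost without WT replicate 2 (0.33) and with the chromosome median offset (0.23).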
